A study of Arabidopsis thaliana with 6 samples.

Results

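PRE1-Ox/IBH1-Ox seedlings were compared with IBH1-Ox seedlings of Arabidopsis thaliana, ecotype Col-0. The PRE1-Ox/IBH1-Ox line, called the double line here, carries 35S:IBH1-myc and 35S:PRE1-YFP, and the IBH1-Ox line carries 35S:IBH1-myc alone. Both lines thus overexpress myc-tagged IBH1 from the 35S promoter, which is active in most plant cells, and they differ in the YFP-tagged PRE1 transgene. All seedlings were 5 days old and came from MS plates in constant light. The comparison takes 4 of the 6 libraries of the series, 2 of each line, chosen by their genotype labels, and all 33518 genes of the deposited table, of which 24451 have a p-value. The labels do not say how many transformed lines stand behind each genotype, or whether the libraries of a line are separate cultures, so a p-value here reflects the spread among these libraries, which may be technical.

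IBH1 is a helix-loop-helix protein without a DNA-binding region, which binds bHLH activators of cell elongation and keeps them from DNA. PRE1 is a small protein of the same kind that binds IBH1 and so frees those activators, and brassinosteroid and gibberellin raise its transcript. The chain is known from hypocotyl and petiole elongation, where IBH1 overexpression gives dwarfs and PRE1 overexpression restores growth. The question behind the comparison is which transcripts of IBH1-overexpressing seedlings shift when PRE1 is overexpressed too.

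The deposited table gives group means of normalized reads, from which whole reads per library were read back. Reads in genes whose mean could be split came to 9506402 and 7979224 in the double line, against 13918858 and 12187738 in IBH1-Ox. Levels below are normalized reads, that is, reads divided by the authors' size factor, and they are compared between lines and not between genes, since they are not per length. The libraries of a line are named by the larger and the smaller size factor, in that order, because nothing ties them to a numbered sample. The SD of log2 differences between libraries, taken where a gene had 200 reads or more, was 0.133 in the double line and 0.153 in IBH1-Ox. Alignments that were not unique made up 10.3% of the summed signal in the double line and 12.8% in IBH1-Ox. The leaf gene RBCS1A stood at 338153 normalized reads in the double line and 271558 in IBH1-Ox, while 5 flower and pollen markers summed to 14.8 in the double line and 12.1 in IBH1-Ox, with AP1 and VGD1 at 0 in both. In whole seedlings, fewer cells of a type and less RNA per cell cannot be told apart.

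A gene is called higher or lower here where the authors' deposited table gives an adjusted p below 0.05. Of the genes tested, 3104 were higher in the double line (12.7%) and 2392 were lower (9.78%). Among the 17245 genes whose larger group mean reached 50 normalized reads, 2975 were higher (17.3%) and 2262 lower (13.1%). The share called was larger at higher levels and came to 49.7% higher and 24.8% lower among the 435 genes with a mean of 5000 or more. At a mean of 50 or more, 438 genes were at least 2-fold higher and 389 at least 2-fold lower, and 79 in each direction passed 4-fold. The median log2 ratio over the genes tested with both group means above 0 was -0.008. The balance between directions depended on the scaling. With limma-voom on the recovered reads, 54.6% of calls were higher under the authors' size factors, 45.7% when total reads set the library sizes, and 36.0% when the total left out the genes that could not be split. The last scaling moved the median log2 difference of all genes to -0.105.

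**Figure D1:**
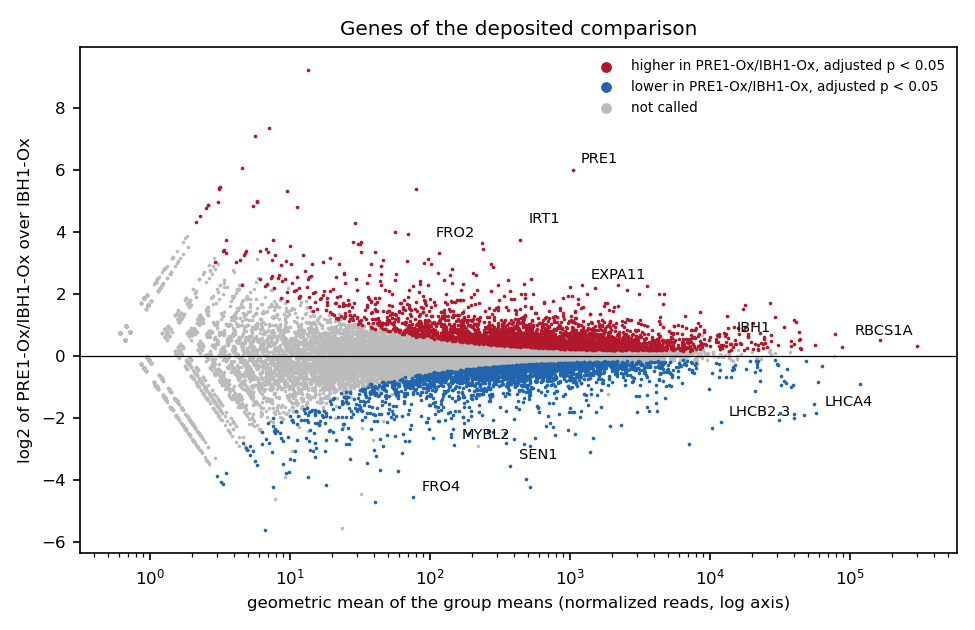
Log2 ratio of the group means, double line over IBH1-Ox (vertical axis), against the geometric mean of the group means in normalized reads (horizontal log axis), 1 point per gene with both means above 0. Red points are higher and blue points lower at an adjusted p below 0.05 in the authors' deposited table. PRE1 lies at 6.01, the iron genes IRT1 and FRO2 at 3.75 and 3.65, and FRO4 at -4.56.

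The transgenes matched the labels. PRE1 (AT5G39860) had 8465 and 8344 normalized reads in the double line, against 125 and 135 in IBH1-Ox, a limma-voom log2 difference of 6.01 ± 0.0974 (SE, n = 2 libraries each). IBH1 (AT2G43060) had 16541 and 16523 in the double line, against 10551 and 11629 in IBH1-Ox, a log2 difference of 0.58 ± 0.0418. IBH1 transcript was thus higher, not lower, in the line that carries PRE1 as well. For both genes, reads of the transgene and of the resident gene cannot be told apart.

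Promoters of 5 genes that recur below are shown, each the 250 bases before the gene start in the RefSeq annotation of TAIR10.1. They were picked after values and motif matches were seen, as examples of genes that differed strongly and hold a searched motif. The motifs, searched on both strands, were the G-box CACGTG, the E-box CACATG, the brassinosteroid response elements CGTGTG and CGTGCG, the auxin response element TGTCTC, the evening element AAAATATCT and the I-box GATAAG. Capitals mark matches in either orientation. No motif contains another, though matches of different motifs may share bases.
EXPA11: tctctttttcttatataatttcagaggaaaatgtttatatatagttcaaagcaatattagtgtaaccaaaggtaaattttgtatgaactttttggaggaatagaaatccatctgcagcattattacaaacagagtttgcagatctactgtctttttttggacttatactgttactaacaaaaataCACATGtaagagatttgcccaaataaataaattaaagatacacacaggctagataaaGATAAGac
IBL1: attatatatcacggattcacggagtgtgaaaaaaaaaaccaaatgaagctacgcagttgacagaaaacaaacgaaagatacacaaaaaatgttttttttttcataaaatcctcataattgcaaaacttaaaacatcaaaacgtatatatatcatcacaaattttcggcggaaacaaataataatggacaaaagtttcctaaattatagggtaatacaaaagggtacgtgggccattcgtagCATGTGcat
AIF1: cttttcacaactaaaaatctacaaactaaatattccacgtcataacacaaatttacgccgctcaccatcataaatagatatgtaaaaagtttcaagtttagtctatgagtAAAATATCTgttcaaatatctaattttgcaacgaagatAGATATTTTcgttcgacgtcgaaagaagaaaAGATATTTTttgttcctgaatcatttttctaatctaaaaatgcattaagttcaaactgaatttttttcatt
PRR7: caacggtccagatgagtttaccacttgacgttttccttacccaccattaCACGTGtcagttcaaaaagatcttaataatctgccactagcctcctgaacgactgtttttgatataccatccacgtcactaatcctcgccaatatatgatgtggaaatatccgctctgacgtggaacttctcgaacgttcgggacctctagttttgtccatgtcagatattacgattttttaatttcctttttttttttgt
LHCB2.3: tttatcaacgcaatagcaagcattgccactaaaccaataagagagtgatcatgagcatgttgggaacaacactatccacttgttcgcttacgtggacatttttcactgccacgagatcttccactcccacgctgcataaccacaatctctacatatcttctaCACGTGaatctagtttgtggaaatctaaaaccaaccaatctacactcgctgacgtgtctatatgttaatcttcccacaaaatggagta
The windows are chr1:6999840-7000089 (minus strand) for EXPA11, chr4:14872268-14872517 (minus strand) for IBL1, chr3:1726901-1727150 (plus strand) for AIF1, chr5:642031-642280 (minus strand) for PRR7 and chr3:10255656-10255905 (plus strand) for LHCB2.3. None overlaps another annotated gene. Positions count back from the gene start. EXPA11 has CACATG from -65 and GATAAG from -8, IBL1 has CACATG from -9, and PRR7 and LHCB2.3 have CACGTG from -201 and -88. AIF1 has 3 copies of the evening element, from -140, -102 and -71.

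Across promoters of all 24235 genes tested with a window, shares were compared as a description with no test. GATAAG stood in 11% of promoters of higher genes, 17.5% of lower genes and 12.2% of all. CACATG stood in 14.1% of higher, 10.8% of lower and 11.3% of all, and AAAATATCT in 3.77%, 2.35% and 2.39%. CACGTG stood in 7.65% of higher, 9.42% of lower and 6.97% of all. The other motifs lay near the background: CGTGTG in 6.03% of higher, 6.53% of lower and 5.52% of all, CGTGCG in 1.68%, 1.72% and 1.64%, and TGTCTC in 10.4%, 11.2% and 10.9%. Sets of at least 2-fold, added with results known, had CACATG in 20.8% of the 437 higher promoters and 10.8% of the 388 lower ones, and GATAAG in 9.84% of higher and 22.2% of lower ones.

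Helix-loop-helix and bHLH genes moved in both directions. Of 26 tested, 9 were higher and 10 lower, with a median log2 ratio of -0.20. Of all genes tested, 12.7% were higher and 9.78% lower. The 9 higher list members include PRE1, whose transgene only the double line carries, and IBH1, whose transgene both lines carry. The higher ones included all 4 AIF genes, whose products are IBH1-related inhibitors of bHLH activators. AIF1 had 717 and 798 normalized reads in the double line, against 98.7 and 110 in IBH1-Ox (log2 2.85 ± 0.122), and IBL1, an IBH1-like gene, had 505 and 558 in the double line, against 91 and 83.7 in IBH1-Ox (2.59 ± 0.132). AIF4 and AIF2 had log2 ratios of 1.56 and 1.13, AIF3 of 0.35, and PAR2, a shade-response inhibitor, of 1.06. The double line's libraries lay above both IBH1-Ox libraries for each of these genes. The share of all genes separated in this way was not counted, so the separation adds no support to the calls.

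Several bHLH activators were lower, while BEE2, PIF3, PIF7 and BPE did not pass, at log2 ratios of -0.07, -0.27, -0.28 and -0.06, and the bHLH gene PIL1 was higher at 1.59. PIF4, an activator of growth in warmth and shade, had 112 and 113 normalized reads in the double line, against 603 and 597 in IBH1-Ox (log2 ratio -2.42), and PIF5 had 300 and 376 in the double line, against 1521 and 1530 in IBH1-Ox (-2.18). HBI1, an IBH1-bound activator of elongation, had 1185 and 1196 in the double line, against 1905 and 1718 in IBH1-Ox (-0.61). BEE1 and BEE3, brassinosteroid-induced bHLH genes, were lower at -0.50 and -0.38. Other PRE genes were also lower, with PRE6 at 99.4 and 115 normalized reads in the double line, against 343 and 329 in IBH1-Ox, and PRE3 at 128 and 116 in the double line, against 197 and 202 in IBH1-Ox.

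Among wall and water-transport genes, those called were mainly higher, and many members did not pass. At a larger group mean of 500 to 5000 normalized reads, 26.4% of all genes tested were higher and 17.3% lower. Expansins, which loosen walls, had 12 of 25 higher and none lower (median log2 0.42). EXPA11 reached 2620 and 2755 normalized reads in the double line, against 547 and 568 in IBH1-Ox (log2 2.27 ± 0.0639), and EXPA3, EXPA1 and EXPA8 had ratios of 1.21, 1.16 and 1.12. Xyloglucan endotransglucosylase/hydrolases, which cut and rejoin xyloglucan, had 9 of 32 higher, close to that share, and 3 lower (XTH6, XTH9 and XTH15), and the highest ratio was that of XTH7, with 8864 and 8432 in the double line, against 2176 and 2206 in IBH1-Ox. Beta-tubulins had 6 of 9 higher and none lower, and aquaporins 10 of 19 higher and 1 lower. Several aquaporins had a larger group mean above 5000, where 49.7% of all genes tested were higher and 24.8% lower. The aquaporin share of 52.6% higher lay near that. The lower aquaporin was TIP2;3, a root tonoplast channel, at 262 and 323 in the double line, against 686 and 837 in IBH1-Ox.

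Lignin and xylem genes had 10 of 14 higher and none lower (median 0.40), among them the secondary-wall genes FLA12 and LAC4 with log2 ratios of 0.88 and 0.73. Cellulose synthesis genes had 6 of 13 higher, which include the secondary-wall genes CESA4, CESA7 and CESA8 at 0.32, 0.37 and 0.33. Over all genes tested, 12.7% were higher and 9.78% lower. The share higher was 26.4% at a larger group mean of 500 to 5000 and 49.7% at 5000 or more. The cellulose share, 46.2%, lay between these. Of the members at 5000 or more, CESA6 and CTL1 were higher, and CESA1, CESA3 and KOR1 did not pass. CESA4, CESA7 and CESA8 had larger group means of 842, 652 and 511, all in the double line, where the matching share is 26.4%. Cuticular wax genes had 6 of 12 higher, such as CUT1 with 7110 and 6988 normalized reads in the double line, against 4082 and 4293 in IBH1-Ox, and 1 lower, CER4. Stomatal lineage genes had 4 of 10 lower and none higher, with the lineage starter SPCH at 71 and 77 in the double line, against 129 and 141 in IBH1-Ox, and the others SDD1, ICE1 and TMM. None of 11 root hair genes passed the threshold in the authors' deposited table and none had an unadjusted p below 0.05 there, while limma-voom called 3 higher, PRP1, PRP3 and LRX1.

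Hormone genes are given by class, beside 12.7% higher and 9.78% lower over all genes tested. GH3 genes, whose enzymes conjugate auxin, had 5 of 7 lower and none higher (median -1.19). GH3.3 had 66.3 and 62 normalized reads in the double line, against 325 and 337 in IBH1-Ox (log2 -2.37 on the ratio of means), GH3.6 had 522 and 533 in the double line, against 1877 and 1816 in IBH1-Ox, and GH3.2, GH3.5 and GH3.17 were lower too. Aux/IAA repressors had 3 of 15 higher (IAA3, IAA7 and IAA17) and 4 lower (IAA1, IAA2, IAA16 and IAA29). These shares, 20% and 26.7%, were not far from those of all genes at a larger group mean of 500 to 5000, 26.4% and 17.3%. IAA29 was at 20.5 and 13.1 in the double line, against 92.9 and 80.4 in IBH1-Ox. IAA7 was at 3578 and 3512 in the double line, against 2114 and 1957 in IBH1-Ox. The 72 small auxin-up RNAs tested had 7 higher and 3 lower, below the shares over all genes. Only 28 of them had a larger group mean of at least 50, and below that 1.79% of all genes tested were higher and 1.8% lower. The shares over all genes are thus not matched to them in level. SAUR52 had 106 and 105 in the double line, against 17.2 and 9.91 in IBH1-Ox. The lower members were SAUR28, SAUR44 and SAUR63.

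Gibberellin and brassinosteroid genes were called in both directions, as were 12.7% (higher) and 9.78% (lower) of all genes tested. Among gibberellin signalling and GASA genes 7 of 13 were higher and 1, RGL3, was lower, with GASA14 at 2052 and 2299 normalized reads in the double line, against 483 and 444 in IBH1-Ox. Of 14 gibberellin metabolism genes 4 were lower, GA20OX2, GA2OX1, GA2OX6 and GA3, and 1, GA3OX1, was higher. Of the brassinosteroid synthesis and inactivation genes, 4 of 12 were higher (BR6OX1, DWF4, BR6OX2 and CYP90D1), with BR6OX1 at 194 and 199 in the double line, against 76.6 and 87 in IBH1-Ox, and DWF4, a rate-limiting hydroxylase, at 660 and 719 in the double line, against 365 and 327 in IBH1-Ox. BAS1, which inactivates brassinosteroids, was the 1 lower member, at 191 and 199 in the double line, against 281 and 250 in IBH1-Ox. Of 8 brassinosteroid signalling genes 2 were higher, BES1 and BKI1, and none lower. The brassinosteroid counts lay near the share of genes called higher at a mean of 500 to 5000, 26.4%. Of 9 auxin synthesis genes YUC9 was higher and YUC3 and TAR2 lower.

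Light-harvesting genes fell in the double line while carbon-fixation genes rose. Antenna genes had 17 of 20 lower and none higher (median log2 -1.35), and their summed group means were 428825.5 normalized reads in the double line and 1118960.3 in IBH1-Ox. Most antenna genes had a larger group mean above 5000, where 24.8% of all genes tested were lower. LHCB2.2 had 2677 and 2627 in the double line, against 18307 and 19937 in IBH1-Ox (log2 difference -2.85), LHCB2.1 had 4612 in each library of the double line, against 21643 and 24277 in IBH1-Ox, and LHCB2.3 had 5764 and 5565 in the double line, against 23221 and 27133 in IBH1-Ox. The authors' group means of LHCA4 were 30492 in the double line and 108842 in IBH1-Ox. The members that did not pass were LHCA5, LHCA6 and LHCB4.3. LHCB1 and RBCS copies are near-identical, and reads that align to several copies were set aside, so single copies are uncertain.

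Nuclear photosystem subunits had 18 of 24 lower and 3 higher (median -0.31), PSAF the lowest at 23319 normalized reads in the double line and 44690 in IBH1-Ox. The higher ones were PSBS, which acts in heat dissipation, PETE2, the main plastocyanin, and PSBQA. Chlorophyll synthesis genes had 13 of 17 lower (median -0.29). Most genes of both lists had a larger group mean above 500. Of all genes tested, 17.3% were lower at 500 to 5000 and 24.8% at 5000 or more. CAO, the enzyme that makes chlorophyll b, had 2729 and 2787 in the double line, against 5985 and 6389 in IBH1-Ox, and HEMA1, the entry enzyme, had 3476 and 3446 in the double line, against 6564 and 7222 in IBH1-Ox. The 1 higher member was PORC, a light-dependent protochlorophyllide reductase.

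Calvin cycle genes had 12 of 13 higher and none lower (median 0.52). All had a larger group mean above 5000, where 49.7% of all genes tested were higher and 24.8% lower. RBCS1B had 28669 and 29254 normalized reads in the double line, against 9695 and 10616 in IBH1-Ox, and SBPASE had 29968 and 29068 in the double line, against 17754 and 17911 in IBH1-Ox. The largest gains in normalized reads were RBCS1A, RCA, CA1, THI1 and GLDP1. THI1, for thiamine synthesis, had 48463 and 47833 in the double line, against 15431 and 14234 in IBH1-Ox, and GLDP1, of photorespiration, had 60623 and 58722 in the double line, against 26207 and 27200 in IBH1-Ox. The largest losses were LHCA4, LHCB1.3, LHCB3, LHB1B2 and LHCB1.2. All of these losses were antenna genes. Of 5 chloroplast regulators CGA1 and GNC were higher, at 1.09 and 0.76, and GLK2 and SIG5 lower, at -0.26 and -0.29.

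Clock genes had 13 of 22 lower and 4 higher (median -0.60). Over all genes tested 9.78% were lower and 12.7% higher, and at a larger group mean of 500 to 5000 17.3% and 26.4%. The clock share higher, 18.2%, lay between those 2 shares. LNK2, a morning coactivator, had 1031 and 1112 normalized reads in the double line, against 4971 and 5161 in IBH1-Ox (-2.24), and PRR7 had 194 and 199 in the double line, against 855 and 766 in IBH1-Ox (-2.04). CCA1 and LHY, the morning repressors, had log2 ratios of -1.06 and -0.94. The higher members were RVE2, ELF4, PRR3 and TOC1, of which RVE2 had 3356 and 3350 in the double line, against 1766 and 1788 in IBH1-Ox. All seedlings were kept in constant light, and the labels give no hour of harvest, so a difference in harvest time was not tested. PHYA, the far-red receptor, was lower at -0.81 and CO, the flowering activator, higher at 1.45.

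**Figure D2:**
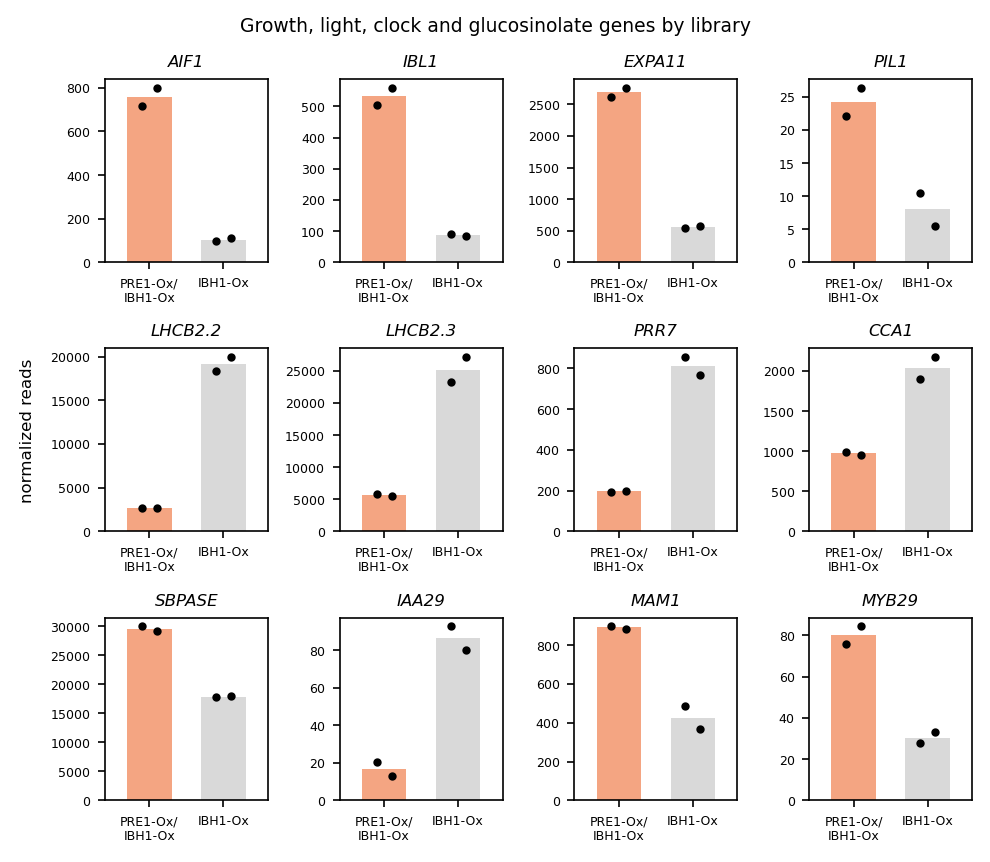
Normalized reads of 12 genes by library, with bars at the mean of 2 libraries and 1 point per library, the double line (orange) left of IBH1-Ox (grey). AIF1, IBL1 and EXPA11 stand higher in both libraries of the double line, and LHCB2.2, LHCB2.3, PRR7 and CCA1 lower.

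Aliphatic glucosinolate genes, which make the methionine-derived defence compounds, had 19 of 22 higher and none lower (median 0.85). Over all genes tested 12.7% were higher and 9.78% lower. At a larger group mean of 500 to 5000 these shares were 26.4% and 17.3%. CYP79F1, the first enzyme of the core pathway, had 361 and 372 normalized reads in the double line, against 45 and 28.6 in IBH1-Ox (log2 ratio 3.32). The factors MYB28 and MYB29 had 963 in each library of the double line, against 467 and 472 in IBH1-Ox, and 75.8 and 84.5 in the double line, against 27.8 and 33 in IBH1-Ox. Indolic glucosinolate genes had 2 of 11 higher, MYB34 and UGT74B1, and 2 lower, IGMT1 and CYP79B3, with IGMT1 at 34.7 and 16.9 in the double line, against 156 and 192 in IBH1-Ox. In the authors' first deposited table, CYP79F1 had 41.2 in IBH1-Ox and 920 in Col wild type. That table shares the IBH1-Ox libraries with this comparison and was normalized separately. It holds only 1547 genes, and those quoted from it here all had an authors' adjusted p below 0.05 there. Genes absent from it could not be compared with Col wild type.

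Flavonoid genes had 12 of 19 higher and 1 lower (median 0.83), against 12.7% higher and 9.78% lower over all genes tested. Chalcone synthase, CHS, had 6904 and 6705 normalized reads in the double line, against 2790 and 2990 in IBH1-Ox (log2 difference 1.24 ± 0.0479), and MYB75, an anthocyanin activator, had a log2 ratio of 1.69. The lower gene was MYBL2, a repressor of the pathway, at 52.1 and 56.3 in the double line, against 396 and 407 in IBH1-Ox. Of 17 defence and jasmonate genes 5 were higher (LOX2, AOS, CORI3, PAD3 and PR5) and 3 lower (VSP1, VSP2 and WRKY33). The biosynthesis genes LOX2 and AOS stood at 5007 and 4821 in the double line, against 1066 and 940 in IBH1-Ox, and at 3083 and 3014 in the double line, against 973 and 1035 in IBH1-Ox, while the storage protein gene VSP1 stood at 52.1 and 45.1 in the double line, against 177 and 210 in IBH1-Ox.

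Iron genes held 4 of the 15 highest ratios. IRT1, the main root iron importer, had 1621 and 1606 normalized reads in the double line, against 158 and 81.5 in IBH1-Ox (log2 3.79 ± 0.155). FRO2, its ferric reductase, had 852 and 813 in the double line, against 85.3 and 47.4 in IBH1-Ox, and CYP82C4, which acts in root coumarin synthesis, had 508 and 533 in the double line, against 19.2 and 5.51 in IBH1-Ox. NAS2, a nicotianamine synthase, had 123 and 135 in the double line, against 6.71 and 6.61 in IBH1-Ox. The ranking took only called genes whose libraries did not overlap between the lines, so the separation of these genes was set by the choice. The IBH1-Ox libraries themselves differed, with the library of the larger size factor higher for IRT1, FRO2 and CYP82C4. Without that library the log2 difference of CYP82C4 was 6.43, and without the other IBH1-Ox library it was 4.73.

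Of the iron uptake and coumarin genes, 7 of 15 were higher and none lower. Of the regulators, storage and chelation genes, 8 of 13 were higher and 1 lower. The shares over all genes tested were 12.7% higher and 9.78% lower, and 26.4% and 17.3% at a larger group mean of 500 to 5000. BHLH38, a partner of the iron regulator FIT, had 1206 and 1266 in the double line, against 305 and 140 in IBH1-Ox, with a log2 difference of 2.54, or 3.14 without the IBH1-Ox library of the larger size factor. FIT itself had 215 and 210 in the double line, against 174 and 192 in IBH1-Ox, with an adjusted p of 0.413 in the authors' deposited table. FER4, a ferritin gene, was the 1 lower member, at 295 and 272 in the double line, against 416 and 434 in IBH1-Ox. Of the other ferritin genes listed, FER3 was higher at a log2 ratio of 0.32, and FER1 did not pass at 0.58. In the authors' first deposited table, IRT1 had 134 in IBH1-Ox and 2325 in Col wild type, and FRO2 had 74.1 in IBH1-Ox and 1145 in Col wild type. In that table other iron genes stood higher in IBH1-Ox, with BHLH100 at 305 in IBH1-Ox and 129 in Col wild type, BHLH101 at 195 in IBH1-Ox and 51.1 in Col wild type, and BTS, an iron-response repressor, at 4408 in IBH1-Ox and 2487 in Col wild type. FIT and BHLH38 are among the genes it does not hold.

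Copper genes split in 2, where over all genes tested 12.7% were higher and 9.78% lower. At a larger group mean of 500 to 5000 those shares were 26.4% and 17.3%. FRO4, a copper reductase, was at 22.1 and 9.39 normalized reads in the double line, against 353 and 389 in IBH1-Ox, with a log2 difference of -4.55, or -5.16 without the double-line library of the larger size factor. FRO5, its neighbour gene, was at 0 in both double-line libraries, against 36.4 and 35.2 in IBH1-Ox. FSD1, the iron superoxide dismutase used when copper is scarce, had 1987 and 1972 in the double line, against 6472 and 7106 in IBH1-Ox, and ZIP2, COPT2 and CCH were lower at -0.99, -0.67 and -0.33. The copper/zinc superoxide dismutases went up: CSD2 had 3264 and 3161 in the double line, against 678 and 732 in IBH1-Ox, CSD1 had 3171 and 3232 in the double line, against 1030 and 942 in IBH1-Ox, and their chaperone gene CCS had 938 and 894 in the double line, against 335 and 368 in IBH1-Ox. The regulator SPL7 had 687 and 667 in the double line, against 737 and 802 in IBH1-Ox, and did not pass, and in all 6 of 11 genes were lower and 3 higher.

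Genes induced by darkness and sugar starvation had 4 of 7 lower and none higher (median -0.71). The share of all genes tested that were lower was 9.78%, or 17.3% at a larger group mean of 500 to 5000 and 24.8% at 5000 or more. The shares higher were 12.7%, 26.4% and 49.7%. SEN1 had 117 and 103 normalized reads in the double line, against 1303 and 1275 in IBH1-Ox, DIN10 had 2457 and 2411 in the double line, against 7614 and 6220 in IBH1-Ox, and ASN1, an asparagine synthetase, had 158 and 162 in the double line, against 450 and 428 in IBH1-Ox. DYL1 was the other, at -0.66, and limma-voom called BGLU30 higher. Of the seed oil breakdown genes, 5 of 9 were lower (ICL, MLS, PCK1, SDP1 and KAT2) and 2 higher (PMDH2 and LACS6), with isocitrate lyase, ICL, at 1812 and 1412 in the double line, against 5681 and 5679 in IBH1-Ox. Seed storage and oleosin genes had 2 of 10 higher, OLEO2 and SESA1, and none lower, though 2 fell below an unadjusted p of 0.05 and limma-voom called 4 lower. The IBH1-Ox libraries were uneven for them, CRU3 being at 91.5 and 67.6 in the double line, against 875 and 336 in IBH1-Ox. SESA1 had few reads, with group means of 12.7 in the double line and 0.958 in IBH1-Ox.

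**Figure D3:**
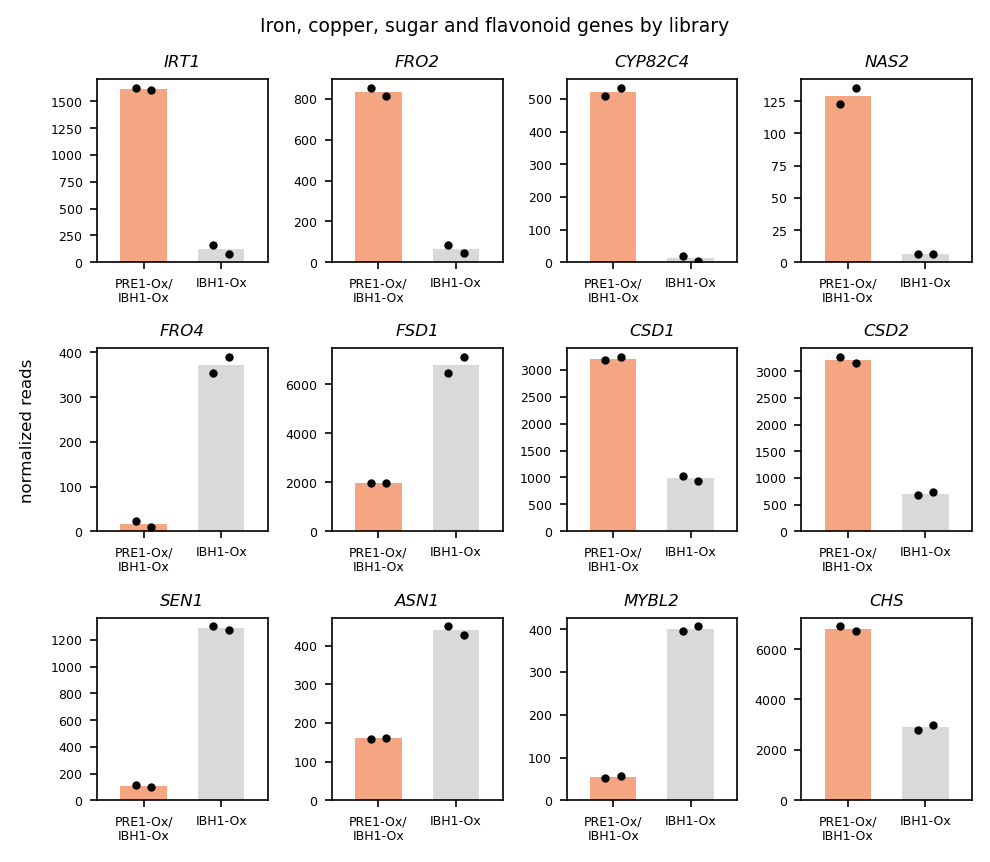
Normalized reads of 12 genes by library, with bars at the mean of 2 libraries and 1 point per library, the double line (orange) left of IBH1-Ox (grey). IRT1, FRO2, CYP82C4, NAS2, CSD1, CSD2 and CHS stand higher in the double line, and FRO4, FSD1, SEN1, ASN1 and MYBL2 lower.

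Among the 15 highest ratios at a mean of 50 or more were genes with almost no reads in IBH1-Ox. AT5G56380, an F-box gene, had 104 and 107 normalized reads in the double line, against 0 in both IBH1-Ox libraries, at least 68.6-fold higher, taking a floor of 3 counts over the group for IBH1-Ox. AT4G08110 had 322 and 338 in the double line, against 0 and 1.1 in IBH1-Ox, from 384 reads in the double line and 1 read in IBH1-Ox. With reads summed over the libraries of a line and divided by its summed size factors, that is a ratio of 643 (95% exact counting interval 115 to 25455). AT1G10160 and AT1G11150 also had 1 read each in IBH1-Ox, and this ratio of summed reads was 177 for AT1G10160 (31.2 to 7074) and 129 for AT1G11150 (22.5 to 5156). In the authors' first deposited table AT4G08110 had 0.615 in IBH1-Ox and 129 in Col wild type. The lowest ratios were held by AT3G55240, at 6.31 and 9.39 in the double line, against 201 and 216 in IBH1-Ox, then FRO4, and AT4G36850, of a PQ-loop family, at 114 and 124 in the double line, against 2227 and 2256 in IBH1-Ox. AT4G11310, a papain-family protease, also ranked low, at 3.16 and 3.76 in the double line, but its IBH1-Ox libraries held 91 and 13.2, and leaving them out in turn gave log2 differences of -1.68 and -4.42.

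**Figure D4:**
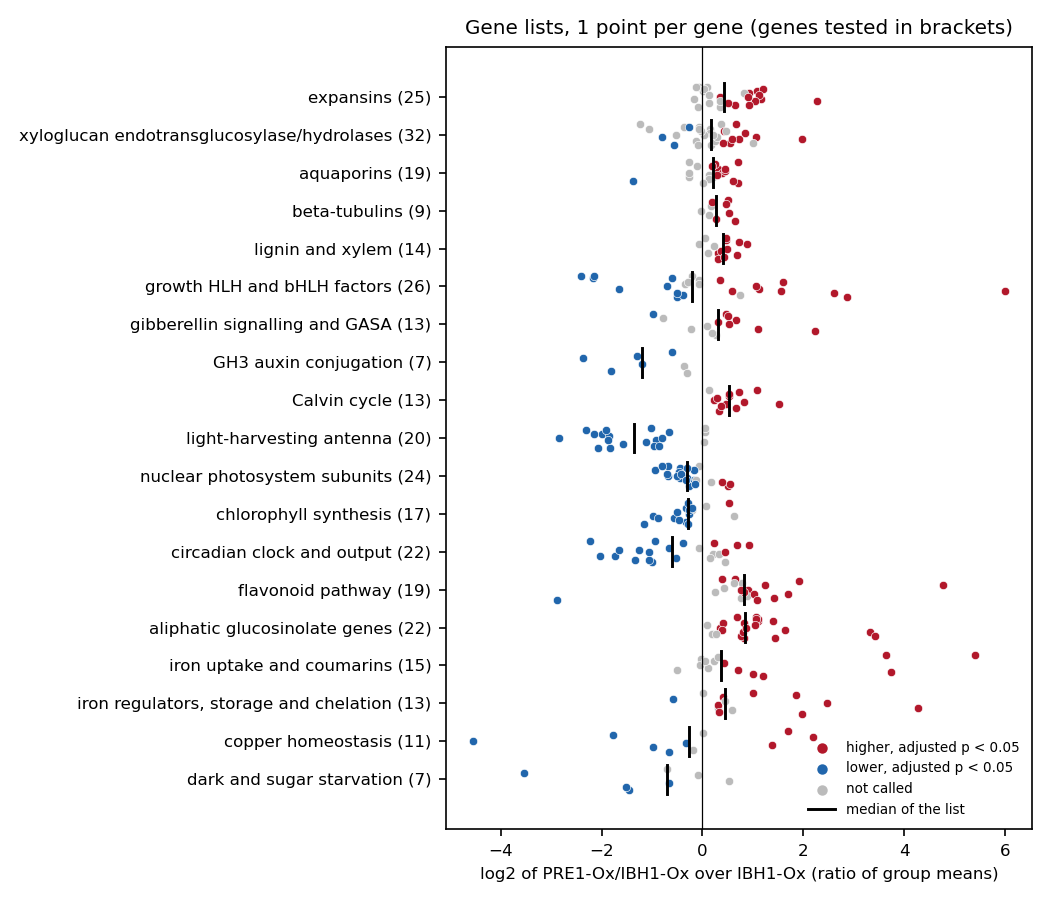
Log2 ratio of the group means, double line over IBH1-Ox, for the genes tested in 19 lists, 1 point per gene. Red points are higher and blue points lower at an adjusted p below 0.05 in the authors' deposited table, grey points did not pass, black bars are list medians, and members with a mean of 0 in a line, such as FRO5, are not drawn. The aliphatic glucosinolate and Calvin cycle medians lie at 0.85 and 0.52, and the antenna and clock medians at -1.35 and -0.60.

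Other lists were mixed or small, and their counts stand beside 12.7% higher and 9.78% lower over all genes tested. At a larger group mean of 500 to 5000 those shares were 26.4% and 17.3%. Photoreceptor and light regulator genes had 3 of 9 higher (HY5, HYH and PHYB) and 3 lower (PHYA, CRY1 and CRY2), B-box factors 2 of 13 higher (CO and BBX20) and 3 lower (BBX28, BBX24 and COL2), and class II HD-Zip factors 2 of 5 lower (HAT2 and HAT3). Cold and abscisic acid genes had 5 of 13 higher (LTI30, ERD10, COR47, RD29A and KIN1) and none lower, and sulfate genes 6 of 16 higher and none lower, though limma-voom called BGLU28 lower. Of 5 cell division genes 1 was lower, CYCB1;1. None of 7 heat shock genes and none of 6 cytokinin response regulators was called in the authors' deposited table, where 1 cytokinin gene had an unadjusted p below 0.05. Limma-voom called 1 heat shock gene, HSP70, and 2 cytokinin genes, ARR6 and ARR16, higher.

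Of 9 nitrate and phosphate genes, NIR1 and NRT1.1 were higher and NIA1 lower. NIR1, nitrite reductase, had 10987 and 10879 normalized reads in the double line, against 5675 and 5941 in IBH1-Ox, while the nitrate reductase gene NIA1 had 6889 and 6750 in the double line, against 13109 and 15406 in IBH1-Ox. Among 8 root markers SHR was higher at 0.56, and PLT1 and TIP2;3 were lower at -1.40 and -1.38. The sum over root markers was 2445.1 normalized reads in the double line and 2862.3 in IBH1-Ox. Of 6 shoot meristem and leaf markers, RCA, RBCS1A and AS1 were higher, while STM had 30 and 31.9 in the double line, against 29.7 and 33 in IBH1-Ox. The part of tissue proportions in the results above was not tested.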

How the data were processed

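RNA of whole seedlings was sequenced from TruSeq libraries of total RNA, per the labels. TopHat, DESeq and the TAIR10 build are named in the submitters' processing notes; versions, strand setting and annotation are not given in the sources used here. Per the file headers, the authors deposited group means of normalized reads (a signal: counts divided by size factors), the ratio of these means (fold), a log2 of that ratio, and p-values with their adjusted form. The table holds 33518 genes and 5 summary entries for unassigned reads, which were left out.

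The authors' group means were split into whole reads of the 2 libraries (relative tolerance 1e-10, absolute 2e-09, set with these tables known): 99.97% split in the double line and 99.88% in IBH1-Ox, with 7 and 28 genes unsplit, all of high means. Limma-voom (limma 3.58.1, R 4.3.3) on these reads, over 19994 genes with a mean of at least 10, gave the log2 differences with standard errors; the procedure was tested on simulated data. Log2 differences with a library left out or under another scaling, and the log2 differences of BHLH38 and FRO4 beside them, are limma-voom values too. Other log2 values are ratios of the authors' deposited means. Members and gene lists were chosen with earlier results of these data known, and 4 members not named so in the reference were left out. Genes named are the transgenes, some of the 15 highest and 15 lowest ratios, the 5 largest gains and losses, up to 4 members a list by size of ratio, and members of small counts; others were chosen after values were seen. The results of 2 gene lists are not reported here. Promoters were read from RefSeq's TAIR10.1 genome, and the deposited tables give no coordinates. Floors and intervals cover counting error only.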

Additional observations from a re-analysis of the deposited data

How the results depend on the processing

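No paired analysis was possible because the recovered libraries carry no replicate number. Genes higher in the double line numbered 3104 as reported, and those lower 2392. Requiring a 2-fold ratio left 566 higher and 519 lower. Lower genes numbered 4207 under limma-voom with total reads as library sizes, 5331 with total reads of split genes alone and 3621 under limma-trend with a pseudocount of 10. The form with split genes alone was tried first, and the form with all genes took its place after that result was seen, so both are given; the cause of the shift was not tested. Leaving out each library in turn, with a lone library assumed to vary like the other line, gave 3004 to 4048 higher and 2075 to 3493 lower genes. Limma-voom called 4156 higher and 3456 lower genes, with 3066 and 2352 of the reported calls among them. No called gene among 611 named or listed with a limma value changed sign under the scalings, pseudocounts or left-out libraries; 27 and 18 lost their call without the first or second double-line library, and 6 and 2 without the first or second IBH1-Ox library. With total reads of split genes alone 4 lost it, AS1, PIP2;7, TOC1 and TUB3. Of the genes named in the report, GA2OX6, YUC9, GA3OX1, BEE1, BEE3, SAUR63, TMM, BAS1, KAT2, AS1, HYH, PLT1, HAT3, TAR2, CYCB1;1, RGL3, SIG5, VSP2, GLK2, TOC1 and XTH6 lost their call without at least 1 library. For AT4G08110, AT1G10160 and AT1G11150, leaving out an IBH1-Ox library gave log2 differences of 7.64 and 9.43, 5.80 and 7.58, and 6.92 and 5.54. Of genes under a mean of 50 normalized reads, 1.79% were called higher and 1.8% lower; the part of depth in this was not tested.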
